A study of Homo sapiens with 9 samples.

Results

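The NF-kB transcription factor family and the inhibitors that its own activity induces were followed in a cultured breast cancer line, MDA-MB-231, treated with YM-155. MDA-MB-231 is an established human line of mesenchymal character, first grown from a pleural effusion. YM-155, or sepantronium bromide, is a small molecule known for lowering survivin, an inhibitor of cell death. The 10 genes were chosen by name: the 5 subunits NFKB1, NFKB2, REL, RELA and RELB, and the inhibitors NFKBIA, NFKBIE, NFKBIZ and TNFAIP3. BIRC3, of the inhibitor of apoptosis family, was listed with them. A gene was read from probe sets that carry its symbol alone, the brightest where there were several. Of the 10 genes, 9 had such a probe set, each of them 1, among 22109 genes measured in this way. BIRC3 had no such probe set in the table used here, so no level is given for it. Cells of 1 group received 14.6 ng/ml YM-155, the median lethal concentration that the submitters had determined, and were taken at 20 h. A second group received the compound in steps adding up to 83 ng/ml and was taken at 8 h, and the control group received no treatment. Each group had 3 arrays, and all 9 arrays came from the same unmodified line. YM-155 was dissolved in DMSO and diluted in HBSS, and the labels name no vehicle and no time for the controls. The 20 h and 8 h groups differ in dose as well as time, so the effects of dose and time cannot be told apart.

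NF-kB is a set of dimers built from 5 related proteins that share a DNA-binding Rel homology domain. In resting cells the dimers are held by inhibitor (IkB) proteins, and a kinase complex marks these for destruction when receptors of the tumour necrosis factor or interleukin families fire. The freed dimers bind kappaB sites in DNA, and among the genes they switch on are several of their own subunits and inhibitors, which makes the response limit itself. Triple-negative breast cancer lines such as MDA-MB-231 are known for a raised resting NF-kB activity. The values below are messenger RNA levels and say nothing of where the proteins were or how active they were.

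The start regions of the genes are shown first because the feedback runs through them. RefSeq start sites on GRCh38.p14 were given for 8 of the 10 genes, 13 starts in all, and the 250 bases before each start were searched on both strands for the kappaB consensus, which reads GGG, a purine, NN, a pair of pyrimidines and CC. A match was found before at least 1 start of 7 of these genes (TNFAIP3, NFKBIA, NFKBIZ, NFKB1, NFKB2, REL and BIRC3), and no match before either start of RELA. Of 27305 genes with such windows, 11.8% held a match before at least 1 start, and 9.96% of all 35116 windows held one. The looser pattern GGGNNNNNCC is in 54.4% of all windows. A match is a stretch of letters, and binding was not measured. RELB and NFKBIE had no window in the table.

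Of the upstream sequences below, 5 are stretches of 120 bases, each read 5′ to 3′ on the strand of its gene, with matches in capitals and positions counted back from the start. NFKBIA (chr14:35404750-35404869, minus strand) has its match at -81 to -72, on the opposite strand. NFKB1 (chr4:102501239-102501358, plus strand) has 1 at -49 to -40. REL (chr2:60881454-60881573, plus strand) has overlapping matches on the 2 strands between -47 and -37. NFKBIZ (chr3:101827757-101827876, plus strand) has 1 farther out, at -223 to -214, and RELA (chr11:65663858-65663977, minus strand) has none.
NFKBIA: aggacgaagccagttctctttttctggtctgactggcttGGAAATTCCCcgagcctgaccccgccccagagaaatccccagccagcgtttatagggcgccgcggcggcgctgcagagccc
NFKB1: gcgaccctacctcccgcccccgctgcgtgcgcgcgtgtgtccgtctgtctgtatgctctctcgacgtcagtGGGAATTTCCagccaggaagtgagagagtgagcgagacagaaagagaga
REL: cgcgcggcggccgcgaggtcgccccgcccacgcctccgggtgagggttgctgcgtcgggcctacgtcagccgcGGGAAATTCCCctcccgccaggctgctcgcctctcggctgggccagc
NFKBIZ: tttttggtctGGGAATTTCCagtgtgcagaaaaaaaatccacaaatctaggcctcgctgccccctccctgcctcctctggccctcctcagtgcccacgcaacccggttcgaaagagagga
RELA: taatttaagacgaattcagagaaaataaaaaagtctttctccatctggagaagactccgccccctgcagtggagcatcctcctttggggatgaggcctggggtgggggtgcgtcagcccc

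For TNFAIP3 and start 2 of NFKB2, whose windows lie inside the span of the annotated gene, only the 30 bases around the matches are shown. TNFAIP3 (chr6:137867188-137867217, plus strand) has 2 matches on the opposite strand, at -67 to -58 and -55 to -46. Start 2 of NFKB2 has overlapping matches between -107 and -97 (chr10:102394462-102394491, plus strand) and another at -78 to -69 (chr10:102394490-102394519).
TNFAIP3: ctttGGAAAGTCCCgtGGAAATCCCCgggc
NFKB2, first site: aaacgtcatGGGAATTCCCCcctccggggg
NFKB2, second site: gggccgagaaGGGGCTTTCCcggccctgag

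The same 10 letters, GGGAATTTCC, occurred before NFKBIA, NFKB1, REL and NFKBIZ on 1 strand or the other, and in 50 of all 35116 windows (0.142%). TNFAIP3 and NFKB2 (start 3, -21 to -12) shared GGGACTTTCC, which was in 0.179% of windows. These shared letters were picked out after the matches were seen and are given as a description.

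**Figure D1:**
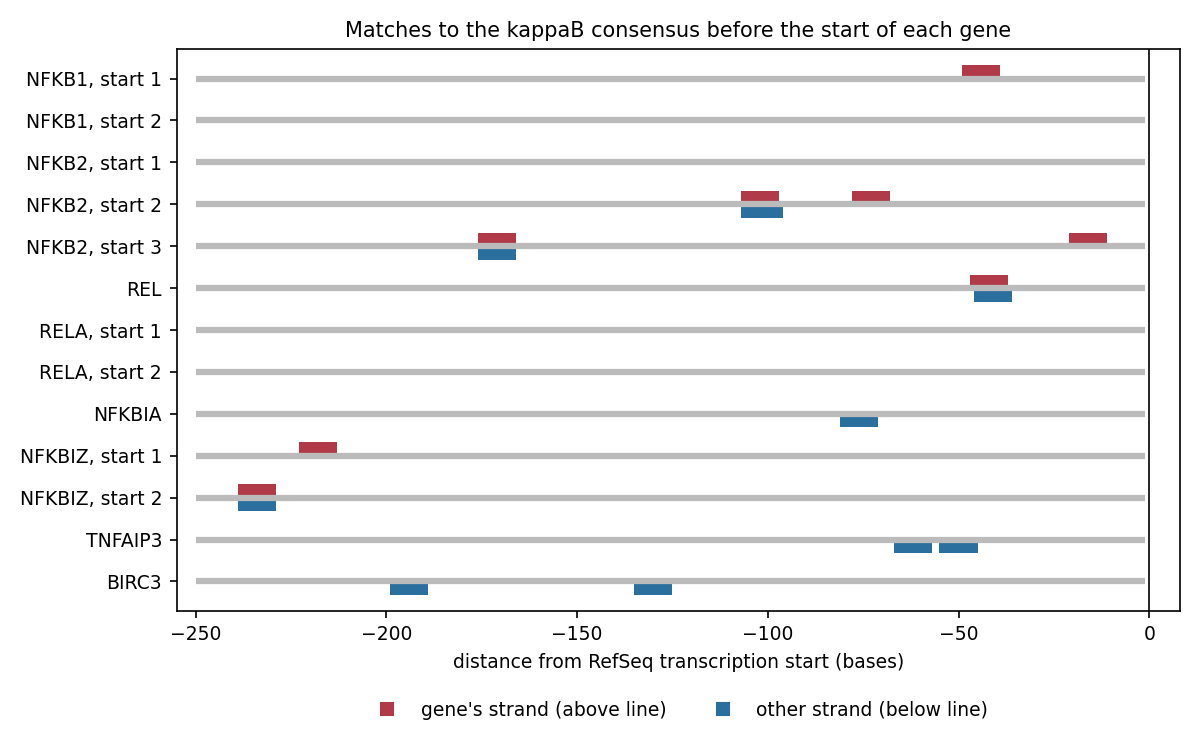
Matches to the kappaB consensus in the 250 bases before each RefSeq start of 8 genes (grey lines; horizontal axis, distance from the start in bases), above the line on the strand of the gene and below it on the other strand. Every gene shown except RELA has at least 1 match, and those of TNFAIP3 lie at -67 to -58 and -55 to -46.

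The arrays were read as log2 RMA values, where a difference of 1 is a doubling. All genes had a median level of 3.89, and precision is limited by there being 3 arrays in a group. The mesenchymal markers VIM, CD44, AXL, MSN and ANXA1 lay between 8.40 and 10.9 on every array and ESR1 and PGR between 1.81 and 3.25. CDH1 (4.23 to 4.95), EPCAM (5.81 to 6.29) and KRT19 (7.54 to 8.12), also listed as low in this line, were above the median of all genes. Leukocyte markers (5 of 6 measured) had array medians of 1.90 to 2.17 at 20 h, 2.15 to 2.28 at 8 h and 1.99 to 2.16 in controls, and single levels of 1.67 to 4.30. The highest of them, CD14, had 3.41 to 4.30 at 20 h, 3.19 to 3.42 at 8 h and 2.95 to 3.40 in controls, so that all 20 h arrays were above all controls, and its part in the results was not tested. The 2 endothelial markers measured lay between 2.51 and 3.06. Control replicate 3 stood apart from the other controls. It was the highest control for 9 of 9 members, against 42.2% of all genes, and exceeded the mean of control replicates 1 and 2 by a median of 0.50 over the members (range 0.13 to 1.10), against 0.01 over all genes. The closest pair of arrays was 8 h replicates 1 and 2. Several results that depend on these arrays are also given without them, though not all. The RNA is from whole cultures, in which fewer cells of a kind and less RNA per cell cannot be told apart. Nothing in the labels says that replicates were separate cultures, so the p-values reflect array-to-array spread that could be technical.

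Most of the circuit was higher after YM-155. At 20 h all 9 measured genes rose above control, where 13.1% of all genes rose (17.2% fell), with a median log2 change of 1.46, against 0.03 over all genes. At 8 h, 6 of the 9 rose, where 5.93% of all genes rose, and 1 fell, where 6.28% of all genes fell, with a median of 0.77, against -0.0031 over all genes. The exceptions at 8 h were RELA and NFKBIA, which passed no threshold, and NFKBIZ, which fell. All calls are from limma over the 9 arrays with p adjusted over all genes and a threshold of 0.05. The members and the lists below were chosen with earlier results of these data known, so their counts are a description and not an independent test. The comparisons with control share the control arrays, and the 20 h and 8 h arrays were also set against each other, where 5 of the 9 were higher at 20 h and 0 lower, against 8.95% and 13.6% of all genes.

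Among the subunits, NFKB1 encodes a precursor whose processed form is the common DNA-binding partner of RELA. Its log2 values were 8.23, 8.13 and 8.04 at 20 h, 7.88, 7.90 and 7.79 at 8 h and 6.97, 6.78 and 7.0 in controls. Every treated array lay above every control, and NFKB1 had the least shift of all members in control replicate 3 (0.13). The rise was 1.21 (SE 0.09, limma adjusted p = 4.64e-06) at 20 h and 0.94 (SE 0.09, limma adjusted p = 0.000136) at 8 h, which is 2.32-fold (95% interval 2.02 to 2.66) and 1.92-fold (1.67 to 2.20). The 20 h level exceeded the 8 h level by 0.28 (SE 0.09, limma adjusted p = 0.0498). That last call ended in 10 of 19 alternative settings, among them the omission of 8 h replicate 3 (adjusted p = 0.146), of 20 h replicate 1 (0.140) or of control replicate 1 (0.0643). It also ended without 20 h replicate 2 (0.107), 8 h replicate 1 (0.10) or 8 h replicate 2 (0.0841).

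NFKB2 encodes the precursor of the alternative pathway, which partners RELB. Its values were 7.05, 7.40 and 7.35 at 20 h, 6.92, 6.92 and 6.78 at 8 h and 5.86, 6.02 and 6.45 in controls, and the 3 groups did not overlap. It rose by 1.16 at 20 h (SE 0.15, limma adjusted p = 0.000184) and by 0.77 at 8 h (SE 0.15, limma adjusted p = 0.00811). The difference of 0.40 between 20 h and 8 h did not pass (95% interval 0.06 to 0.73, limma adjusted p = 0.0870), though without control replicate 3 it did (adjusted p = 0.0245).

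RELB, a subunit that acts mainly in the alternative pathway, went up in steps. Its values were 6.06, 6.22 and 6.21 at 20 h, 5.48, 5.37 and 5.25 at 8 h and 4.42, 4.70 and 4.97 in controls. The rise was 1.46 at 20 h (SE 0.13, limma adjusted p = 1.76e-05) and 0.66 at 8 h (SE 0.13, limma adjusted p = 0.00891). It was also higher at 20 h than at 8 h, by 0.80 (SE 0.13, limma adjusted p = 0.00181). This was the largest such difference among the 5 subunits, and its call held in all 19 alternatives.

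REL encodes c-Rel, a subunit with a transactivation domain that is best known from lymphocytes. Here it had 7.31, 7.38 and 7.30 at 20 h, 7.0, 6.99 and 7.20 at 8 h and 5.40, 5.36 and 6.14 in controls. The treated arrays were above all controls, and control replicate 3 was above the other controls by 0.76. REL had the largest rise of the subunits in both comparisons with control, 1.70 at 20 h (SE 0.18, limma adjusted p = 5.17e-05), or 3.25-fold (95% interval 2.46 to 4.29), and 1.43 at 8 h (SE 0.18, limma adjusted p = 0.000754), or 2.70-fold (2.04 to 3.56). Between 20 h and 8 h the difference was 0.27 (95% interval -0.13 to 0.67, limma adjusted p = 0.340). Without control replicate 3, which narrows the shared spread and leaves this difference as it is, the adjusted p was 0.0390.

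RELA, the main transactivating subunit of the classical pathway, moved least among the subunits at 20 h. It had 8.52, 8.71 and 8.62 at 20 h, 8.31, 8.30 and 8.34 at 8 h and 7.51, 7.44 and 8.31 in controls. Control replicate 3 thus lay at the level of the 8 h arrays, and the 8 h and control groups overlapped. RELA rose by 0.86 at 20 h (SE 0.19, limma adjusted p = 0.00600), or 1.82-fold (95% interval 1.35 to 2.45). The 8 h difference of 0.56 (95% interval 0.13 to 0.99) did not pass (limma adjusted p = 0.0939). Without control replicate 3 it was 0.84 and passed (adjusted p = 0.000370), and without control replicate 1 or 2 it was 0.44 or 0.41 and did not (adjusted p = 0.267 or 0.277). Between 20 h and 8 h the difference was 0.30 (95% interval -0.13 to 0.73, limma adjusted p = 0.314), and without control replicate 3 it passed with the same size (adjusted p = 0.0172).

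**Figure D2:**
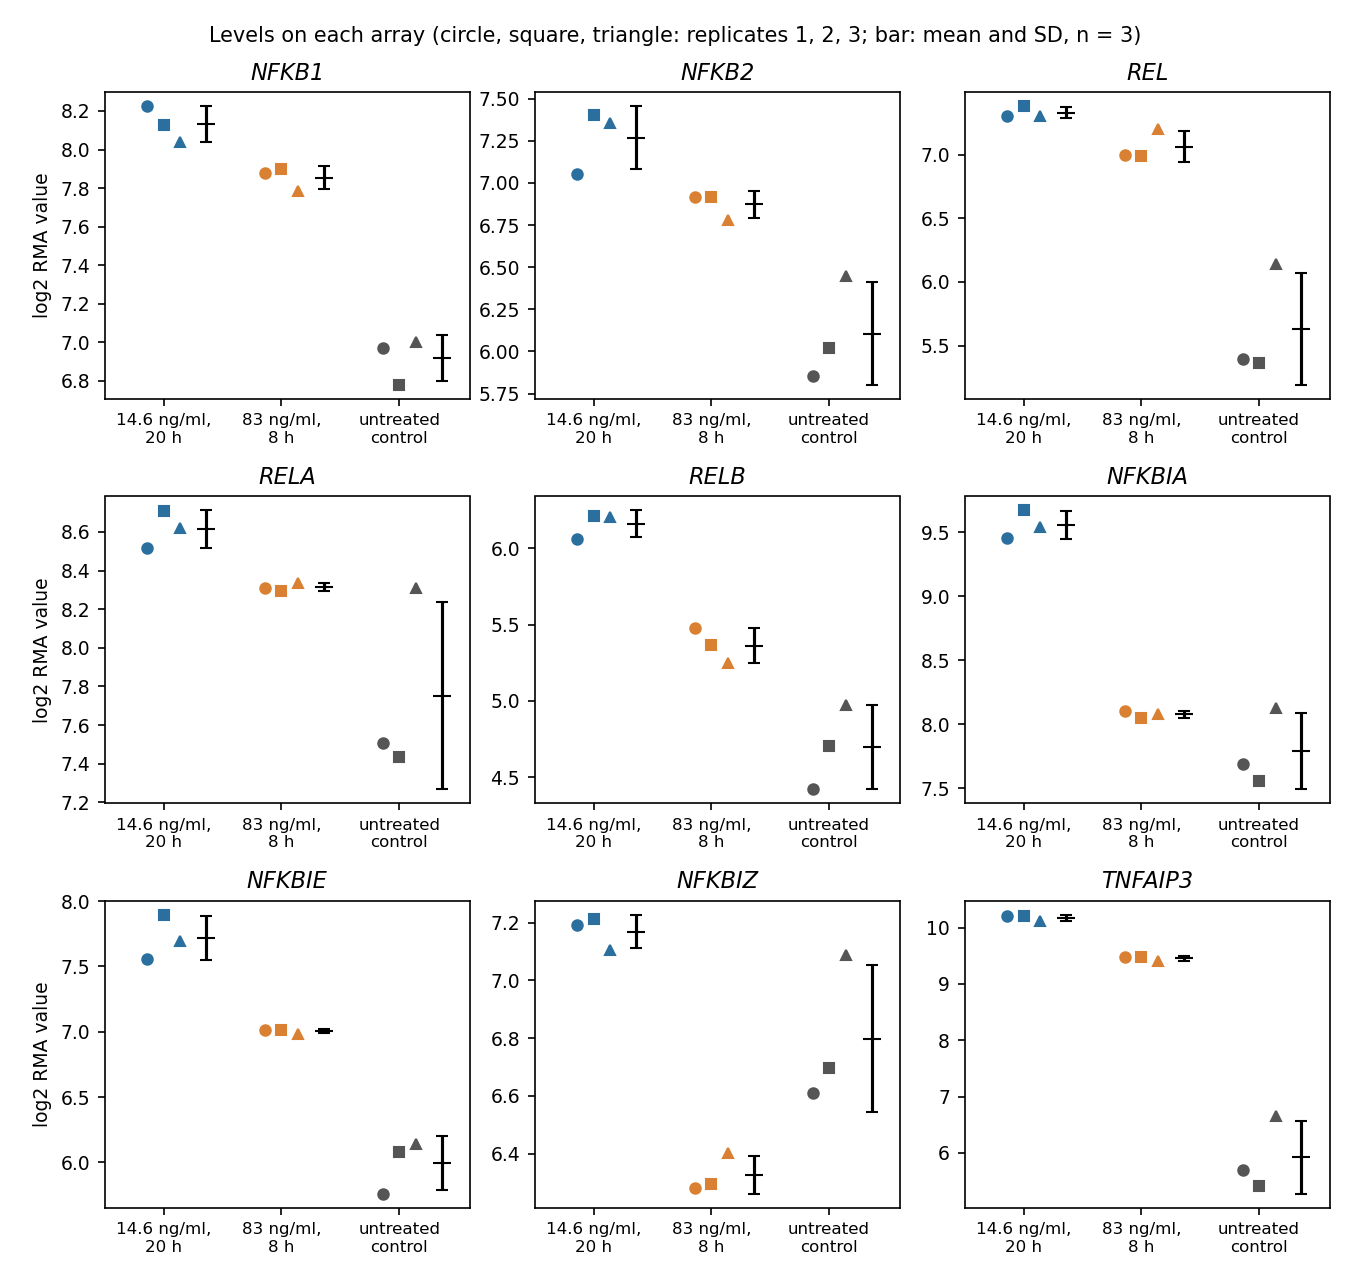
Log2 RMA values of the 9 measured genes on each of the 9 arrays (vertical axis, a scale of its own for each gene), in the 14.6 ng/ml 20 h group, the 83 ng/ml 8 h group and untreated controls, with mean and SD (n = 3). Control replicate 3 (grey triangle) is the highest control in each panel, reaching 8.31 for RELA, and NFKBIZ is the gene whose 8 h arrays lie below all controls.

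Among the inhibitors, changes ran from 0.37 to 4.25 at 20 h and from -0.47 to 3.53 at 8 h. TNFAIP3 encodes a ubiquitin-editing enzyme that switches off signalling upstream of the inhibitor kinase. It had 10.20, 10.21 and 10.12 at 20 h, 9.48, 9.48 and 9.41 at 8 h and 5.70, 5.41 and 6.66 in controls. No treated array was near any control, although control replicate 3 was 1.10 above the mean of the other controls. The rise of 4.25 at 20 h (SE 0.25, limma adjusted p = 1.06e-06) was 19.0-fold (95% interval 13 to 27.8), and the rise of 3.53 at 8 h (SE 0.25, limma adjusted p = 2.31e-05) was 11.6-fold (7.89 to 16.9). Each ranked 1 among the 22109 genes by size of rise. Leaving out any 1 array gave 3.99 to 4.61 at 20 h and 3.28 to 3.90 at 8 h.

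Between the treated groups, all 20 h arrays lay above all 8 h arrays for TNFAIP3, by a mean of 0.72 (95% interval 0.17 to 1.27), and the difference did not pass (limma adjusted p = 0.0643). The treated arrays varied little (SD 0.05 at 20 h and 0.04 at 8 h), while the controls had an SD of 0.65, which enters the shared spread. With only the 20 h and 8 h arrays in the fit the adjusted p was 0.000552, and without control replicate 2 or 3 it was 0.0308 or 0.000491. The difference passed in 5 of 19 alternative settings, these among them, and not in the others. With single arrays left out the adjusted p reached 0.162.

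NFKBIA encodes IkB-alpha, the inhibitor that is destroyed and made anew in each round of classical signalling. Its values were 9.46, 9.67 and 9.55 at 20 h, 8.10, 8.05 and 8.08 at 8 h and 7.69, 7.55 and 8.12 in controls. The 20 h arrays stood far above the rest, and the 8 h arrays lay within the range of the controls. NFKBIA rose by 1.77 at 20 h (SE 0.13, limma adjusted p = 5.46e-06), or 3.41-fold (95% interval 2.77 to 4.19). At 8 h the difference was 0.29 (95% interval -0.01 to 0.59, limma adjusted p = 0.225). That difference depended on single controls: it was 0.46 without control replicate 3 and passed (adjusted p = 0.0111), and 0.17 without control replicate 2 (adjusted p = 0.531). The 20 h level exceeded the 8 h level by 1.48 (SE 0.13, limma adjusted p = 4.90e-05), the largest such difference among the members, which ranked 66 of 22109 genes.

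NFKBIE encodes IkB-epsilon, a further inhibitor induced by NF-kB. It had 7.56, 7.89 and 7.70 at 20 h, 7.01, 7.01 and 6.98 at 8 h and 5.76, 6.08 and 6.14 in controls, with no overlap between the 3 groups. It rose by 1.72 at 20 h (SE 0.12, limma adjusted p = 2.93e-06) and by 1.01 at 8 h (SE 0.12, limma adjusted p = 0.000488), which is 3.30-fold and 2.01-fold. Between 20 h and 8 h it differed by 0.71 (SE 0.12, limma adjusted p = 0.00181). Unlike NFKBIA, NFKBIE had thus passed the threshold at 8 h, but the 2 genes' changes were not tested against each other.

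NFKBIZ encodes IkB-zeta, an atypical nuclear member of the inhibitor family that also works as a coactivator of some target genes. It had 7.19, 7.21 and 7.10 at 20 h, 6.28, 6.29 and 6.40 at 8 h and 6.61, 6.70 and 7.09 in controls. The 8 h arrays were the lowest of the 9, and the 20 h arrays were just above the highest control, replicate 3. NFKBIZ fell by 0.47 at 8 h (SE 0.12, limma adjusted p = 0.0277) and rose by 0.37 at 20 h (SE 0.12, limma adjusted p = 0.0370). Against each other, the 20 h level was higher than the 8 h level by 0.84 (SE 0.12, limma adjusted p = 0.000687). That call held in all 19 alternatives.

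The calls of NFKBIZ against control were less firm. The fall at 8 h no longer passed without 8 h replicate 1 (adjusted p = 0.0925), 2 (0.0871) or 3 (0.0557), or with 8 h replicates 1 and 2 counted as 1 sample (0.0884). The rise at 20 h no longer passed without control replicate 1 (adjusted p = 0.134) or 2 (0.123), 8 h replicate 1 (0.0544) or 2 (0.0545), or 20 h replicate 1 (0.0921), 2 (0.102) or 3 (0.0604). Without control replicate 3 the 20 h change was 0.52 (adjusted p = 0.00118). The sign stayed the same in every one of these fits.

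**Figure D3:**
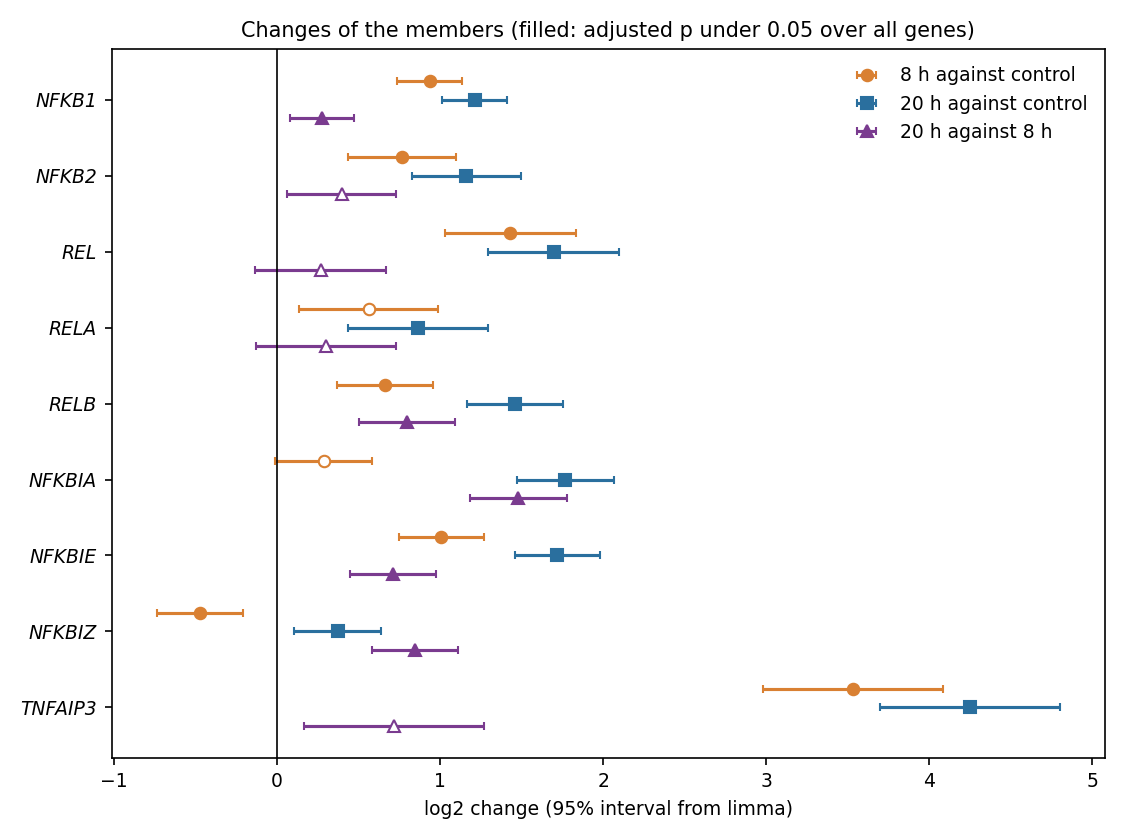
Log2 changes (horizontal axis) of the 9 measured genes with 95% intervals from limma, for 8 h against control (circles), 20 h against control (squares) and 20 h against 8 h (triangles); filled symbols passed an adjusted p of 0.05 over all genes. TNFAIP3 lies apart from the rest at 3.53 and 4.25, and NFKBIZ is the gene on the negative side at 8 h (-0.47).

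The genes whose values less the control mean lay closest, array by array, to those of TNFAIP3 were ATF3, FOSB, SIK1, NOCT and CHORDC1, in that order. The values were not scaled, so closeness depends on the size of the rise as well as on its shape, and TNFAIP3 had the largest rise. Closeness was the root mean square distance over the 9 arrays of values less the control mean, among the 10182 genes left above the median level once symbols of unnamed loci and of non-coding, small and antisense RNAs were set aside, and ran from 0.74 for ATF3 to 1.01 for CHORDC1 in log2 units. ATF3, a stress-induced transcription factor, had changes of 3.57 at 20 h and 2.63 at 8 h, and CHORDC1, a cochaperone, had 3.03 and 2.44. FOSB, a subunit of the AP-1 transcription factor, had 4.14 at 20 h and 2.19 at 8 h. SIK1, a salt-inducible kinase with a near-identical copy in the genome that may share its probes, had 3.06 and 2.76, and NOCT, a circadian phosphatase, had 3.14 and 2.48.

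Upstream of the circuit, the receptors, adaptors and kinases showed little common movement. Of 20 genes measured of 25 listed, 5 rose and 6 fell at 20 h, with a median change of -0.01, where 13.1% of all genes rose and 17.2% fell. At 8 h, 2 rose and 2 fell, with a median of 0.03, where 5.93% of all genes rose and 6.28% fell, so the 8 h counts are close to those of all genes. At 20 h IKBKG, the regulatory subunit of the inhibitor kinase, rose by 0.63, though a near-identical pseudogene copy may share its probes. TLR4, a receptor for bacterial lipopolysaccharide, rose by 0.50. CD40, a receptor of the tumour necrosis factor family, fell by 0.56 and MAP3K7, the kinase that activates the inhibitor kinase, fell by 0.49 (limma adjusted p between 0.00140 and 0.00604 for these 4). At 8 h MAP3K14, the kinase of the alternative pathway, rose by 0.68 and TAB3, an adaptor of MAP3K7, by 0.44, and TNFRSF1A, the main receptor for tumour necrosis factor, fell by 0.45 (limma adjusted p between 0.00215 and 0.0103). TAB1, another adaptor of MAP3K7, fell by 0.48 (limma adjusted p = 0.0455), a call that ended in 12 of 19 alternatives, including the omission of any 1 control (adjusted p between 0.0914 and 0.120), and of 8 h replicate 1 (0.0992) or 3 (0.145) or 20 h replicate 2 (0.0686). Its loss left 1 gene of this list lower at 8 h. The call of TAB3 at 8 h ended with the mean of its probe sets (adjusted p = 0.267), where the change was 0.21. These genes were also called at 20 h, where MAP3K14 and TAB3 rose by 0.36 and 0.45. TNFRSF1A and TAB1 fell by 0.38 and 0.48 at 20 h (limma adjusted p between 0.00315 and 0.0237 for MAP3K14, TAB3, TNFRSF1A and TAB1).

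Of 18 other genes listed by name as inhibitors of the pathway, all measured, 6 rose and 3 fell at 20 h, with a median of 0.25. At 8 h, 3 rose and 0 fell, with a median of 0.08. Besides IRAK3, described below, BIRC2 fell by 0.70 and TNFAIP8 by 0.42 at 20 h, and both were picked out after their values were seen. The role of each listed gene in these cells was not tested. Among all genes 13.1% rose and 17.2% fell at 20 h, and 5.93% rose and 6.28% fell at 8 h, so the 3 falls at 20 h are near the share of all genes. ZC3H12A, a ribonuclease that destroys inflammatory messenger RNAs, rose most, by 1.94 at 20 h (limma adjusted p = 2.75e-05), with means of 6.72 ± 0.20 at 20 h and 4.78 ± 0.43 in controls (SD, n = 3 each). CYLD, a deubiquitinase that restrains the pathway like TNFAIP3, rose by 0.96 at 20 h and by 0.86 at 8 h. TRAF1, an adaptor that is itself an NF-kB target, rose by 0.93 at 20 h, while IRAK3, a brake on interleukin 1 receptor signalling, fell by 1.06, although the mean of its probe sets fell by 0.48. OTULIN, which removes linear ubiquitin chains, rose by 0.50 at 8 h. TNIP1, a binding partner of TNFAIP3, rose by 0.88 at 20 h (limma adjusted p = 0.000520). At 8 h it rose by 0.48 (limma adjusted p = 0.0403), a call that ended in 12 of 19 alternatives and without any 1 array other than control replicate 3. Without control replicate 3, 7 of the genes listed as inhibitors rose and 3 fell at 20 h, and 4 rose and 0 fell at 8 h. Without any 1 of the other arrays, 6 rose and 3 fell at 20 h, and 2 rose and 0 fell at 8 h.

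Known NF-kB target genes other than the members rose more often than they fell. Of 30 genes measured of 32 listed, 15 rose and 1 fell at 20 h, with a median of 0.54, and 8 rose and 0 fell at 8 h, with a median of 0.22. The shares of all genes were 13.1% higher and 17.2% lower at 20 h, and 5.93% higher and 6.28% lower at 8 h. CXCL8, the neutrophil chemokine, rose by 2.82 at 20 h and 2.05 at 8 h, and PTGS2, the inducible cyclooxygenase, by 2.41 and 1.74. IL11, a cytokine of the interleukin 6 family, rose by 2.57 at 20 h and 0.79 at 8 h, and ICAM1, a leukocyte adhesion molecule, by 1.73 and 0.88. IL1A, an alarm cytokine, rose by 1.30 at 20 h and 1.38 at 8 h, and LIF, also of the interleukin 6 family, by 1.70 and 1.13. For these changes the limma adjusted p lay between 3.47e-07 and 0.00254, except for ICAM1 at 8 h (limma adjusted p = 0.0356). That was the highest adjusted p among the 8 target genes called at 8 h. PLAU, which encodes urokinase, fell by 0.65 at 20 h, and was picked out as the lone fall after its value was seen. Control replicate 3 was the highest control for CXCL8, PTGS2, IL1A, LIF and ICAM1, though not for IL11. For ICAM1 it had 8.27, against 7.33 and 7.17 in control replicates 1 and 2 and a mean of 8.47 at 8 h. The control means of CXCL8 (3.37) and IL1A (3.27) lay below the median level of all genes (3.89). Without control replicate 3, 17 of the 30 rose and 1 fell at 20 h and 12 rose and 1 fell at 8 h. Without any 1 of the other arrays, 7 rose and 0 fell at 8 h. At 20 h, 14 rose without control replicate 1 or 20 h replicates 1 or 2, and 16 without 20 h replicate 3.

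Between 20 h and 8 h, the target genes gave 8 higher and 1 lower, the other inhibitors 5 and 5, and the receptors, adaptors and kinases 2 and 4, where 8.95% of all genes were higher and 13.6% lower. The counts of the receptors, adaptors and kinases are near those shares. Among targets, IL11 was higher at 20 h by 1.77, ICAM1 by 0.85, IRF1, an interferon regulatory factor, by 0.80 and CXCL8 by 0.78. Among inhibitors, ZC3H12A was higher by 1.35, NFKBIB, which encodes IkB-beta, by 1.12, TRAF1 by 0.76 and RNF11, a partner of TNFAIP3, by 0.71. NFKBIB had means of 6.70 ± 0.10 at 20 h, 5.59 ± 0.21 at 8 h and 5.78 ± 0.23 in controls (SD, n = 3 each). As for NFKBIA, its 20 h arrays lay above all others, and no 8 h array exceeded the highest control. The 8 h difference of NFKBIA from control depended on single controls, as given above. Of the upstream genes, IKBKG and TRAF3, an adaptor that restrains MAP3K14, were higher at 20 h by 0.46 and 0.36, and MAP3K7 and IKBKB, a catalytic subunit of the inhibitor kinase, had differences of -0.57 and -0.39. The call of ICAM1 ended without any 1 of the 8 h arrays or 20 h replicates 2 or 3 (adjusted p up to 0.0897), that of CXCL8 without 8 h replicate 2 (0.0588) or 20 h replicate 1 (0.0517), and those of IKBKG and TRAF3 without 8 h replicate 1 (0.0544 and 0.0531). The call of IKBKG also ended without 20 h replicate 2 (0.0540), and that of IKBKB with quantile normalization repeated (0.0653). The counts depended on single arrays too: the target genes higher at 20 h numbered 4 without 8 h replicate 2 or 20 h replicate 2, 5 without any of the other treated arrays, and 11 without control replicate 3. The lower target genes numbered 0 without 8 h replicates 1 or 2 or 20 h replicate 3, and 2 without control replicate 3. The upstream genes called higher numbered 0 without 8 h replicate 1, 1 without 20 h replicate 2 and 4 without control replicate 3, and those called lower numbered 2 without 8 h replicate 2 or 3 or any 1 of the 20 h arrays. The inhibitors called lower numbered 3 without any 1 of the 8 h arrays or 20 h replicates 1 or 2.

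**Figure D4:**
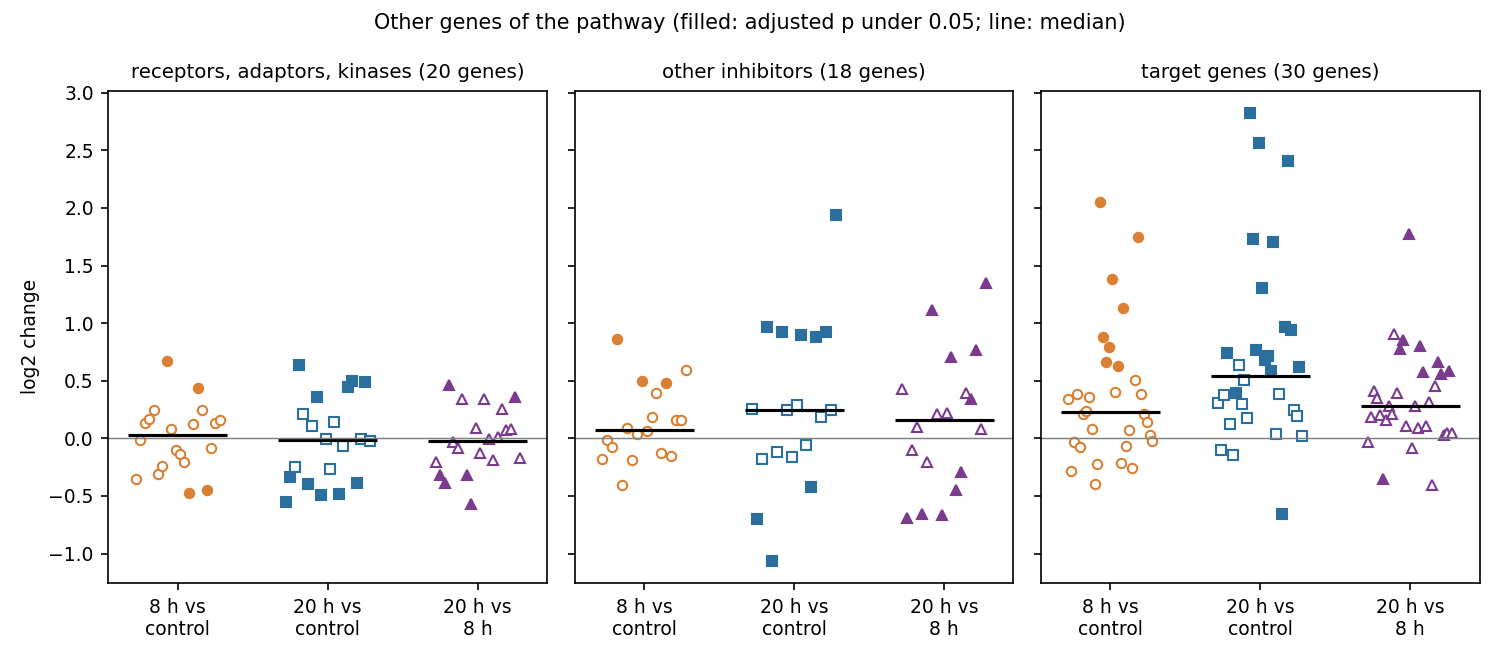
Log2 changes (vertical axis) of the other genes of the pathway in 3 lists, for 8 h against control (circles), 20 h against control (squares) and 20 h against 8 h (triangles); each point is a gene, filled where the adjusted p was under 0.05, and the line is the median. The medians stay near 0 for receptors, adaptors and kinases (0.03, -0.01 and -0.02) and are highest for target genes at 20 h (0.54).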

How the data were processed

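Expression was measured on 9 Affymetrix whole-transcript arrays, 1 per sample. The deposited values are log2 probe set summaries made by the authors with RMA in Affymetrix Expression Console, per the submitters' processing notes; versions and genome build are not given in the sources used here. The file held 53617 probe sets, with array medians of 3.11 to 3.20. Of these, 25713 were in the platform's gene table, 23558 with 1 symbol and 2155 with several. The brightest probe set per symbol by the mean over 9 arrays gave 22109 genes, and 3 symbols were updated through RefSeq. No filter was applied.

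Group means were fitted across all genes with lmFit and eBayes in limma 3.58.1 (R 4.3.3), two-sided, with Benjamini-Hochberg adjustment and a threshold of 0.05. An exact permutation test of 3 against 3 arrays cannot go below 0.1 and was not used. The scripts were tested on simulated data. Alternatives were genes above the median level, all probe sets, the mean of probe sets, quantile normalization again, centred arrays, a fit of only the 2 groups compared, weighted arrays, a trended, robust variance, the replicate number as a block, 8 h replicates 1 and 2 counted as 1, and leaving out each array. The members, lists and alternatives were chosen with earlier results of these data known. All 10 members were named, with up to 4 called genes of each list and comparison by size of change and the 5 genes nearest to TNFAIP3. Promoter sequences are RefSeq's (GRCh38.p14), found for 8 members. Other steps ran in Python 3.11.15 with pandas 2.3.3, numpy 2.4.6 and, for plots, matplotlib 3.10.9.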

Additional observations from a re-analysis of the deposited data

Results flagged for a closer look

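Several genes changed by different amounts in the 2 treated groups relative to the same controls, by the test of 20 h against 8 h in limma, in which the controls cancel from the difference. On the log2 scale the 20 h change exceeded the 8 h change by 1.48 for NFKBIA, 0.84 for NFKBIZ, 0.80 for RELB, 0.71 for NFKBIE and 0.28 for NFKB1. NFKBIZ is the member that had opposite signs against control at 20 h (0.37) and 8 h (-0.47). Of the other inhibitors, ZC3H12A differed by 1.35, NFKBIB by 1.12, TRAF1 by 0.76 and RNF11 by 0.71. Target genes differed by 1.77 for IL11, 0.85 for ICAM1, 0.80 for IRF1 and 0.78 for CXCL8. The upstream genes IKBKG and TRAF3 differed by 0.46 and 0.36, and MAP3K7 and IKBKB by -0.57 and -0.39. Not all of these calls held in the 19 alternative settings. NFKB1 (limma adjusted p = 0.0498) lost its call in 10 of them and ICAM1 in 7. CXCL8 and IKBKG lost theirs in 2 each, and IKBKB and TRAF3 in 1 each. The other genes named here kept theirs in all 19. Dose and time differ together between these groups, and their parts cannot be told apart.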

How the results depend on the processing

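Each member's change was recomputed in 19 alternative settings, 513 values in all for 9 genes and 3 comparisons. None changed sign, 471 stayed on their side of the threshold, 25 lost their call and 17 gained one. At 8 h, 6 to 8 members were higher in all settings, and at 20 h 8 or 9, the gene lost being NFKBIZ. The fall of NFKBIZ, the 1 lower member at 8 h, was lost, leaving 0 lower, with only the 2 groups compared (limma adjusted p = 0.0733), with 8 h replicates 1 and 2 counted as 1, and without any of the 8 h arrays (0 to 1 over all arrays left out). Between 20 h and 8 h, 5 members were higher, against 8 with only the 2 groups compared, and 4 to 9 with single arrays left out, 9 being the count without control replicate 3. Arrays with the same replicate number did not deviate together (correlations from -0.188 to 0.058). The labels do not say whether the number marks a pairing, and these correlations cannot exclude one. With the replicate block, 9 members were higher at 20 h, 6 at 8 h, with 1 lower, and 4 at 20 h against 8 h, where NFKB1 lost its call (adjusted p = 0.0800). Centring each array on its median moved the median change of all genes by under 0.1.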
